A study of Rattus norvegicus with 24 samples.

Results

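Microglia and macrophage genes were followed in cultured rat neural stem cells and in the cells differentiated from them. The list held 35 genes, matched by symbol against the table of 12187 genes. It found 34 of the 35, and Cd163 was not listed. The genes were listed as known markers of these cells, with earlier results of these data known, among them that most of their reads lie in replicate 2, so the list is not independent evidence of that difference. Of the 24 samples of the study, the 6 RNA-seq libraries were used, and the other 18 were not analysed here. All came from the Sprague-Dawley rat strain. The groups, each with 2 libraries, were neural stem cells (D0), differentiated cells grown without vitamin C (VC-) and differentiated cells grown with it (VC+). Differentiated cells carried a D4 label in replicate 1 and a D5 label in replicate 2, so replicate number and day cannot be told apart in them. The labels state no age, no sorting of cells, no source of the cultures and no vitamin C dose, and nothing in them tells if replicates came from different cultures or rats, so p-values here reflect only the spread between these libraries, which may be technical. The table lists CPM, read counts per gene divided by a library total set by the authors, and is not corrected for gene length, so levels are compared between libraries and not ranked between genes. Whole reads were recovered from the CPM steps. The libraries held 4811094 to 6641721 listed reads in replicate 1 and 10299321 to 13184601 in replicate 2. A gene with no read may stand at up to 3 reads, which is 0.140 CPM in the deepest library and 0.378 CPM in the shallowest.

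Microglia are the resident macrophages of the brain. They arise from yolk sac myeloid progenitors and not from neural stem cells, and they depend on signalling through the CSF1 receptor and on the transcription factor PU.1, encoded by Spi1. In the developing brain they clear dying cells and synapses, using complement, phagocytic receptors that signal through ITAM adaptors, lysosomal enzymes and an oxidase that makes superoxide.

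RefSeq promoter windows (build GRCr8, 250 bases before to 50 after each start) were found for 24 of the 34 listed members. The PU.1 site searched for, GAGGAA on either strand, was in 15 of these 24 windows, or 62.5%, against 26.8% of the 9212 windows of listed genes and 27.5% of all 27457 windows. The AP-1 site TGANTCA was in 5 member windows, or 20.8%, against 4.85% of the windows of listed genes and 7.33% of all. TGTGGT, the RUNX core, was in 4 windows, or 16.7%, against 12.3% of listed genes and 16.9% of all windows. The CEBP site TTGCNNAA was also in 4 windows, or 16.7%, against 8.61% and 10.5%. The PU.1 and IRF composite, which shares the letters GGAA with the PU.1 site, was in 3, or 12.5%, against 2.48% and 2.87%. These are counts of letters, not of bound factors. The windows of Lyz2 (chr7:54797962-54798261, minus strand) and C1qb (chr5:154407778-154408077, minus strand) are shown because they hold GAGGAA, in capitals and read as TTCCTC where it lies on the other strand. C1qa (chr5:154419884-154420183, minus strand) is shown as a chain of the same gene cluster whose window lacks these letters. Cd48 (chr13:86717744-86718043, plus strand), the member whose libraries were not split by replicate number, lacks them too.
Lyz2: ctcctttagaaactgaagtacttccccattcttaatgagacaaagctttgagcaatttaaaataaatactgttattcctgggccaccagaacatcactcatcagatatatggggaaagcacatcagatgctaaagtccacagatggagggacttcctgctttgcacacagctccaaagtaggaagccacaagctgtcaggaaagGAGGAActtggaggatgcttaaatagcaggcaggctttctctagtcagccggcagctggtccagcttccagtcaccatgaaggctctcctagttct
C1qb: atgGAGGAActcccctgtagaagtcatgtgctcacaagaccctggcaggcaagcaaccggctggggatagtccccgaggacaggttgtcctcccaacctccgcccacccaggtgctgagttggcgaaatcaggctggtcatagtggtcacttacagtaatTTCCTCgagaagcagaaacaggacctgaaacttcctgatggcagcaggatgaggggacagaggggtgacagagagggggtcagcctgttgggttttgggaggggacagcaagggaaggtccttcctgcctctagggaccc
C1qa: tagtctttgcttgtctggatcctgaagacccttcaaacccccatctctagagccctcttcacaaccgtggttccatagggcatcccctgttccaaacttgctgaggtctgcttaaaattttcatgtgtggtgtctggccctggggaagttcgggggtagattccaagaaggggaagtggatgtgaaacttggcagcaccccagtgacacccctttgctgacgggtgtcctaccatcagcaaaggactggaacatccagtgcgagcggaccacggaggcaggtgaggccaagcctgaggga
Cd48: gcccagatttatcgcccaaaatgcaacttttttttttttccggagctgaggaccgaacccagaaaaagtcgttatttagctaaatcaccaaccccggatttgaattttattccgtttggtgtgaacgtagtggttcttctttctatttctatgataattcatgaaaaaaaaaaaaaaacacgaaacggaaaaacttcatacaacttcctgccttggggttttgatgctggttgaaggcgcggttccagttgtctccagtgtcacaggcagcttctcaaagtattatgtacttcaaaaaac

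Most member genes were near their detection limit in the replicate 1 libraries and were well above it in those of replicate 2, in stem cells and differentiated cells alike. Summed over the 34 members, the level was 46.9 CPM in the stem cells, 46.9 CPM without vitamin C and 63.7 CPM with it in replicate 1. In replicate 2 the sums in the same order were 1354, 2435 and 1996 CPM, or 0.200%, 0.404% and 0.323% of the CPM listed. In bulk RNA, fewer cells of a type and less RNA per cell cannot be told apart.

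For 33 of the 34 members, the 3 replicate 2 libraries all lay above the 3 of replicate 1, which held for 24.2% of the 11823 genes tested. Cd48 was the exception. In replicate 1, 21 members had at most 3 reads in each library, and Itgam, Cd84, Msr1 and Mrc1 had none at all. No member was at 0 in a replicate 2 library. A limma fit with group and replicate terms, on log2(CPM + 0.5), called 33 of 34 members higher in replicate 2 at an adjusted p (Benjamini-Hochberg) under 0.05. Over all genes, 25.1% were called in either direction and 17.4% higher in replicate 2. The members' median difference was 4.54 on the log2 scale, against -0.01 for all genes tested, and ran from 0.64 for Cd48 to 9.45 for Lyz2. Genes needed 1 CPM in 2 libraries to be tested. For 25 members no replicate 1 library reached 1 CPM. These passed through replicate 2 only and had to differ, so their calls and p-values support nothing. Of the 9 members with at least 1 CPM in a replicate 1 library (Cd48, Gpnmb, Coro1a, Cd68, Cyba, Lcp1, Hcls1, Cd14 and Tmem119), Cd48 alone was not called. Tmem119, Hcls1 and Cd14 reached 1 CPM in only 1 of those libraries. They too needed replicate 2 to pass, and their calls carry the same limit. Each difference kept its sign without any 1 library, but many calls were lost without a VC- library. Without VC- replicate 1, 10 members and 58 genes in all were called. Without VC- replicate 2, the fit called 0 genes, and the smallest adjusted p of a member was 0.0568.

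**Figure D1:**
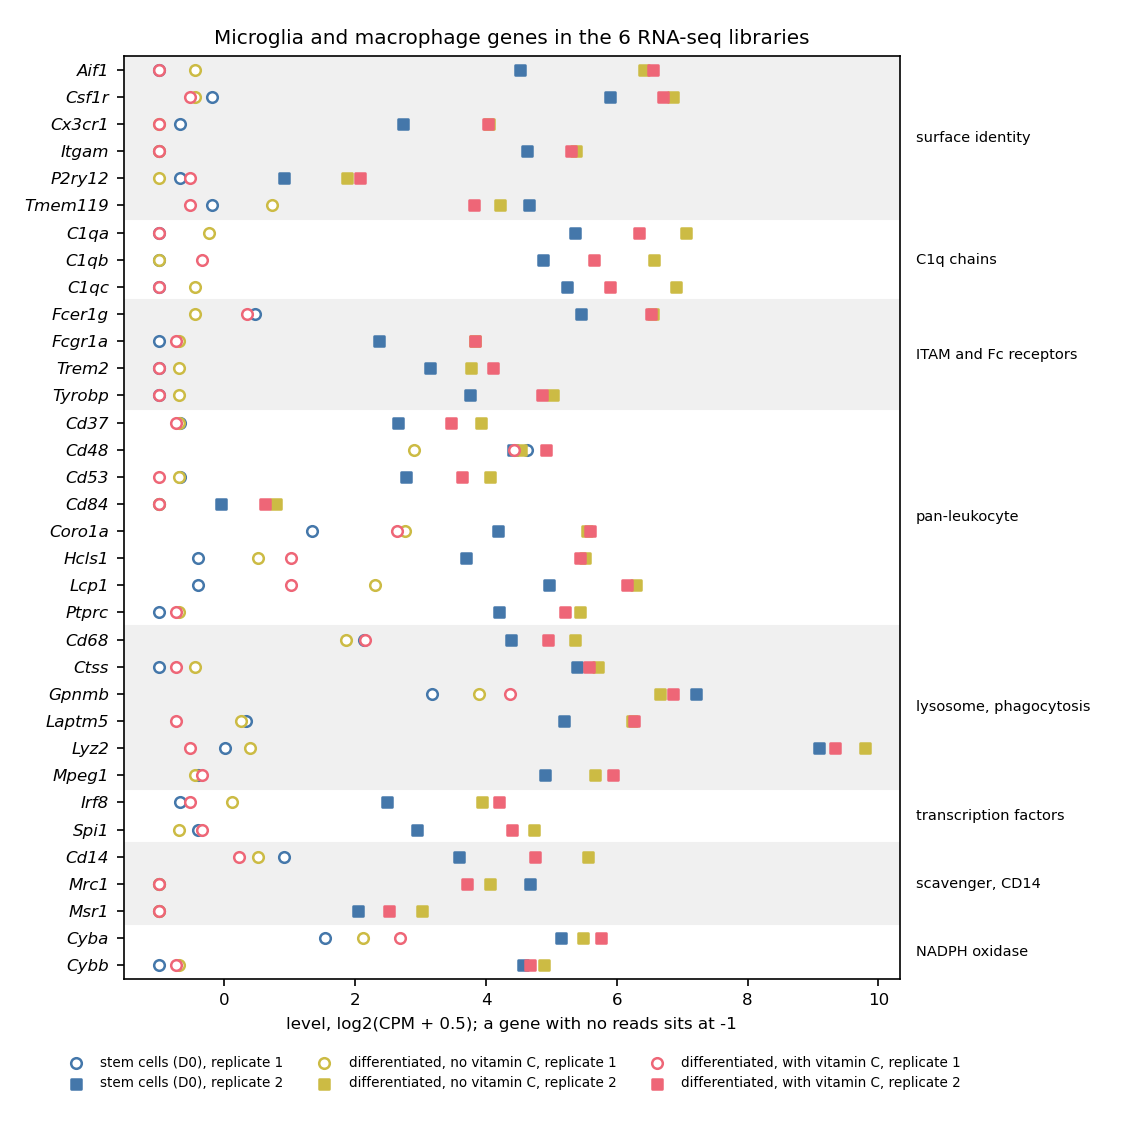
Level of each of the 34 listed members, as log2(CPM + 0.5), in the 6 RNA-seq libraries, grouped by role; open circles are replicate 1, filled squares replicate 2 and colours the 3 groups. The filled squares lie to the right of the open circles for every gene but Cd48.

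The surface proteins that identify microglia are taken first, with CPM given in the order D0, VC- and VC+. Aif1, which encodes the actin-binding protein IBA1, was at 0, 0.233 and 0 CPM in replicate 1, against 22.5, 85.1 and 93.3 CPM in replicate 2. Against 3 reads in the empty libraries, its replicate 2 level was at least 59.4-fold higher in D0 and at least 325-fold higher in VC+. Within replicate 2 it was highest in the differentiated cells, 3.79-fold (95% interval 3.37 to 4.27) above the stem cells in VC- and 4.15-fold in VC+. Such ratios set 1 library against 1, so they have no test, and their exact intervals cover read counting only.

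Csf1r, the receptor for CSF1 and IL-34, was at 0.378, 0.233 and 0.191 CPM in replicate 1, against 59.4, 115 and 104 CPM in replicate 2. The replicate difference of 6.88 (SE 0.33) was the largest of the 6 identity genes, and the sets were far apart in each group. Itgam, the CD11b integrin chain, had no read in replicate 1 and 24.1, 41.2 and 38.8 CPM in replicate 2, at least 63.7-fold, 118-fold and 135-fold higher. Cx3cr1, the fractalkine receptor, was at 0.126, 0 and 0 CPM against 6.11, 16.0 and 15.9 CPM.

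P2ry12, an ADP receptor of resting microglia, was at 0.126, 0 and 0.191 CPM in replicate 1, against 1.38, 3.17 and 3.70 CPM in replicate 2, a difference of 2.35 (SE 0.40). Tmem119, a membrane protein used to tell microglia from other macrophages, was at 0.378, 1.16 and 0.191 CPM and then at 24.7, 18.1 and 13.6 CPM. The 2 genes differed in their order of groups within replicate 2. P2ry12 was lowest in the stem cells, as were Aif1, Csf1r, Cx3cr1 and Itgam, while Tmem119 was highest there, with a VC- to D0 ratio of 0.733 (0.631 to 0.851).

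C1q, which starts the classical complement cascade, is built from 3 chains whose genes lie side by side. C1qa was at 0, 0.349 and 0 CPM in replicate 1, against 40.7, 134 and 80.5 CPM in replicate 2. C1qb followed with 0, 0 and 0.287 CPM and then 28.6, 94.9 and 49.5 CPM, and C1qc with 0, 0.233 and 0 CPM and then 37.1, 119 and 59.2 CPM. In each chain the order within replicate 2 was VC- above VC+ above D0. The ratios of VC- to D0 were 3.28, 3.31 and 3.22 for C1qa, C1qb and C1qc, and those of VC+ to VC- were 0.603, 0.522 and 0.496. Summed, the chains stood at 106, 348 and 189 CPM in replicate 2, a VC+ to VC- ratio of 0.544 (0.523 to 0.566). In replicate 1 no chain passed 3 reads in any library, so no ratio between groups could be read there. The windows of C1qa and C1qb printed above thus belong to genes with the same order of libraries, the first without the letters GAGGAA on either strand and the second with 2 matches.

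The ITAM adaptors Tyrobp (DAP12) and Fcer1g carry the signal of receptors that lack a signalling tail, among them TREM2 and the Fc receptor encoded by Fcgr1a. Tyrobp was at 0, 0.116 and 0 CPM in replicate 1, against 13.1, 32.1 and 28.5 CPM in replicate 2. Fcer1g was at 0.883, 0.233 and 0.765 CPM and then at 43.5, 93.5 and 91.7 CPM. Both adaptors were thus lowest in the stem cells of replicate 2, with VC- to D0 ratios of 2.45 for Tyrobp and 2.15 for Fcer1g. Trem2, a lipid receptor, was at 0, 0.116 and 0 CPM against 8.34, 13.2 and 16.8 CPM. Fcgr1a was at 0, 0.116 and 0.0957 CPM against 4.66, 13.8 and 13.8 CPM. Trem2 alone of these 4 had a VC+ to VC- interval above 1 in replicate 2, 1.27 (1.08 to 1.5). The replicate differences were 4.16 for Fcgr1a, 4.58 for Trem2, 5.45 for Tyrobp and 6.06 for Fcer1g. Fc receptor genes have close relatives, and how the counting treated shared reads is not given in the sources used here.

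Genes shared by most leukocytes come next. Ptprc, which encodes the CD45 phosphatase, was at 0, 0.116 and 0.0957 CPM in replicate 1, against 17.9, 43.0 and 36.6 CPM in replicate 2. The tetraspanin genes Cd37 and Cd53 stayed at or below 0.126 CPM in replicate 1 and reached 5.78 to 14.7 CPM and 6.37 to 16.2 CPM. Cd84, a SLAM receptor, had no read in replicate 1 and only 0.460, 1.24 and 1.03 CPM in replicate 2. It passed the filter through replicate 2 only and so had to differ. Even so, its call (difference 1.45) was lost with a pseudocount of 2, with quantile normalization and in edgeR.

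The actin regulators Coro1a, Lcp1 and Hcls1 were read in replicate 1 as well. Coro1a was at 2.02, 6.28 and 5.74 CPM there and at 17.7, 46.4 and 47.7 CPM in replicate 2. Lcp1 (L-plastin) was at 0.252, 4.42 and 1.53 CPM and then at 30.7, 77.7 and 70.6 CPM. Hcls1, a cortactin relative of blood cells, was at 0.252, 0.930 and 1.53 CPM and then at 12.4, 45.2 and 42.9 CPM. In all 3 genes the stem cells were the lowest library of each replicate set.

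Cd48, a ligand of SLAM-family receptors, stood apart. It was at 24.1, 6.98 and 21.1 CPM in replicate 1, against 20.8, 22.7 and 29.7 CPM in replicate 2. The sets overlapped, and the difference of 0.64 (SE 0.38) did not pass the limma test (adjusted p = 0.253). Without either D0 library it was 1.06 and passed. The low library was VC- of replicate 1, where the ratio of VC+ to VC- was 3.02 (2.26 to 4.08) against 1.31 (1.16 to 1.49) in replicate 2.

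Lyz2, the lysozyme of macrophages, gave the largest difference between replicate sets of any member. It had 4, 7 and 2 reads in replicate 1, or 0.504, 0.814 and 0.191 CPM, against 543, 886 and 643 CPM in replicate 2. The ratio of the sets was 1076 in D0 (420 to 3950), 1089 in VC- (528 to 2708) and 3362 in VC+ (931 to 27765), and the fitted difference was 9.45 (SE 0.20). In replicate 2, Lyz2 alone made up 40.1%, 36.4% and 32.2% of the members' CPM. Without it the members still summed to 811, 1549 and 1352 CPM there, against 46.0 to 63.5 CPM in replicate 1. Rodent lysozyme genes have closely related copies that the counting could split, so its level is uncertain.

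Other lysosomal and phagocytic genes split the same way. Ctss, the protease cathepsin S, was at 0, 0.233 and 0.0957 CPM in replicate 1, against 41.6, 51.7 and 47.2 CPM in replicate 2. Mpeg1, a pore-forming protein of phagosomes, was at 0.252, 0.233 and 0.287 CPM and then at 29.4, 50.5 and 60.7 CPM. Laptm5, a lysosomal membrane protein, was at 0.757, 0.698 and 0.0957 CPM and then at 36.1, 74.8 and 75.9 CPM. Cd68, a lysosomal glycoprotein that other cells also make at low level, was at 3.14 to 3.92 CPM in replicate 1, against 20.4, 40.7 and 30.4 CPM in replicate 2. Its difference, 2.85 (SE 0.30), was less than that of Ctss at 6.29 (SE 0.24), Mpeg1 at 5.90 and Laptm5 at 5.95.

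Gpnmb, a glycoprotein of lysosomes that melanocytes and some glia make too, was at 8.58, 14.4 and 20.2 CPM in replicate 1, against 147, 101 and 116 CPM in replicate 2. The stem cells were its lowest library in replicate 1 and its highest in replicate 2, and VC+ lay above VC- in both. The VC- to D0 ratio was 1.68 (1.24 to 2.29) in replicate 1 and 0.684 (0.643 to 0.728) in replicate 2. For VC+ to D0 it was 2.35 (1.78 to 3.14) and 0.787 (0.743 to 0.834). Between sets it differed by 3.09 (SE 0.33, limma adjusted p = 0.00648).

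The transcription factors of the myeloid lineage were low in number of reads but followed the rest. Spi1, which encodes PU.1, was at 0.252, 0.116 and 0.287 CPM in replicate 1, against 7.23, 26.1 and 20.5 CPM in replicate 2. Irf8, its partner in macrophages, was at 0.126, 0.581 and 0.191 CPM and then at 5.12, 14.8 and 17.9 CPM. Their differences between sets were 4.51 (SE 0.47) and 3.91 (SE 0.40). Within replicate 2 the 2 were 3.61-fold (2.93 to 4.49) and 2.88-fold (2.24 to 3.76) above the stem cells in VC-.

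Cd14, the lipopolysaccharide co-receptor, was at 1.39, 0.930 and 0.670 CPM in replicate 1, against 11.6, 46.5 and 26.4 CPM in replicate 2. Msr1, a scavenger receptor, had no read in replicate 1 and 3.61, 7.63 and 5.24 CPM in replicate 2. Mrc1, the mannose receptor of macrophages at brain borders and vessels, had none either and then 24.9, 16.2 and 12.5 CPM. Cd14 and Msr1 were highest in VC-, and Mrc1 in the stem cells. Mrc1 had the same order of groups as Tmem119, with a VC- to D0 ratio of 0.649 (0.556 to 0.758) and a VC+ to VC- ratio of 0.776 (0.656 to 0.918).

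The membrane part of the phagocyte NADPH oxidase pairs the subunits encoded by Cybb and Cyba. Cybb, the catalytic subunit found mainly in phagocytes, was at 0, 0.116 and 0.0957 CPM in replicate 1, against 23.3, 29.2 and 25.1 CPM in replicate 2. Cyba, which other cell types use as well, was at 2.4, 3.84 and 5.93 CPM and then at 34.8, 44.1 and 53.4 CPM. The sets did not overlap for either, and the difference was 5.53 (SE 0.26) for Cybb and 3.35 (SE 0.20) for Cyba. Cyba was lowest in D0 and highest in VC+ in each set.

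**Figure D2:**
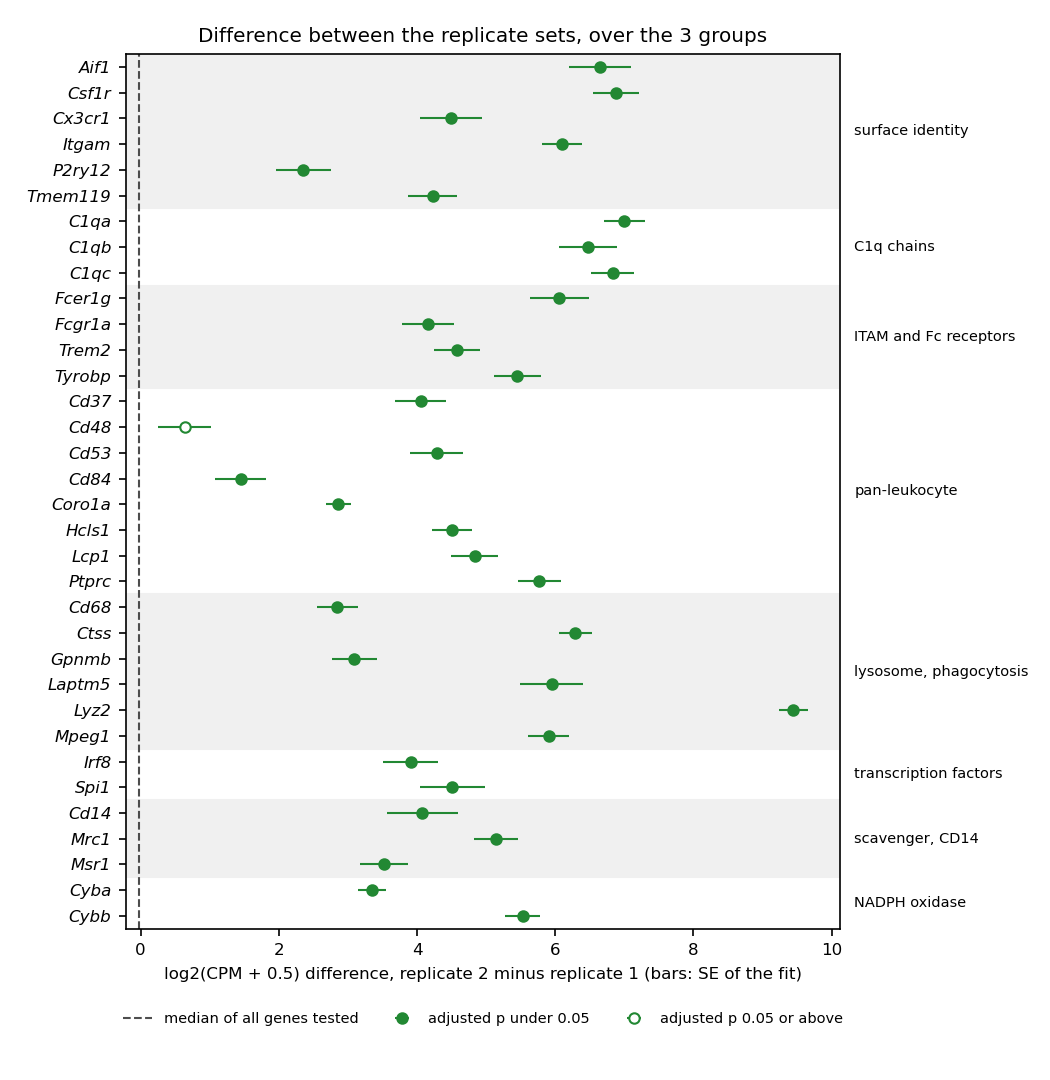
Fitted difference between the replicate sets for each member, replicate 2 minus replicate 1 in log2(CPM + 0.5), with bars for the SE of the limma fit and a dashed line at the median of all genes tested. Filled points passed an adjusted p of 0.05, and Cd48, at 0.64, is the open point. Of the filled points, 25 are members tested through replicate 2 only, which had to differ, so their calls support nothing. Those of Tmem119, Hcls1 and Cd14 carry the same limit.

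Differentiation without vitamin C was compared with the stem cells next. Within replicate 2, 31 of 34 members were lowest in the stem cells, and Tmem119, Mrc1 and Gpnmb were highest there. Ratios of VC- to D0 ran from 0.649 (Mrc1) to 4.02 (Cd14), with a median of 2.35. The interval lay above 1 for 30 members, below 1 for 3 and across it for Cd48. On log2(CPM + 0.5), 18 members were up by at least 2-fold, against 7.96% of all genes, and 0 were down, against 6.98%. The members' median was 1.07 on that scale, and that of all genes was 0.01. The transcription factors and C1q chains stood furthest above the stem cells, their sums being 3.31-fold (2.82 to 3.90) and 3.27-fold (3.09 to 3.45) those in D0. The oxidase sum stood least above them, 1.26-fold (1.16 to 1.37).

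Across both replicate sets this comparison passed no test. The limma fit of the 3 groups called 0 of 34 members and 0% of all genes (382 genes and 0 members at an unadjusted p under 0.05). Also edgeR called 0 genes (384 unadjusted), while DESeq2 called 71 genes and 0 members. Member differences ran from -0.80 for Cd48 to 2.02 for Lcp1, with a median of 0.49 (1.21 in edgeR and 1.18 in DESeq2) and an SE of 0.59 to 5.14 on the log2 scale, since each group holds a library from each set. The smallest p that exact permutation of 2 libraries against 2 allows is 0.333. In direction, 15 members were higher in VC- in both sets and 0 lower, against 28.6% and 29.5% of all genes. Both replicate 1 libraries were at or under 3 reads for 21 members. Of the 15, these included Aif1, C1qa, C1qc, Tyrobp, Trem2, Fcgr1a, Ptprc, Ctss and Cybb, whose direction there could not be read. No member's groups were fully separated, against 13.8% of genes higher and 13.2% lower. For the 33 members split by replicate set this could not occur, since each group holds a library of each set, so the count says nothing. Coro1a was 3.11-fold (1.75 to 5.82) and 2.62-fold (2.29 to 3.02) above D0 in replicates 1 and 2. Lcp1 was 17.5-fold (4.53 to 150) and 2.53-fold (2.27 to 2.81) above it, the first from 38 reads against 2. With the replicate number as a block, limma still called 0 (smallest member adjusted p = 0.188). DESeq2 with the block called 3 members, against 3.87% of genes, with differences of 1.49 for Coro1a (adjusted p = 0.00572), 2.30 for Lcp1 (0.0153) and 1.82 for Hcls1 (0.0288).

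Cells differentiated with vitamin C were also set against the stem cells, and the 2 comparisons share the D0 libraries. In replicate 2 the ratios ran from 0.504 (Mrc1) to 4.15 (Aif1) with a median of 2, and the interval lay above 1 for 29 members and below 1 for 3. On log2(CPM + 0.5), 15 members were up by at least 2-fold, against 11.4% of genes, and 0 down, against 7.24%. Over both sets limma called 0 members and 0% of genes (507 genes and 0 members unadjusted). Here edgeR called 0 genes (505 unadjusted) and DESeq2 137, with 0 members. The member median was 0.45, from -0.59 for Tmem119 to 1.59 for Hcls1, and was 1.02 in edgeR and 1.00 in DESeq2. In both sets 14 members were higher and 1, Tmem119, lower (2 reads against 3 in replicate 1), against 28.6% and 29.0% of genes. Both replicate 1 libraries were at or under 3 reads for 23 members, so their direction there could not be read. No member's groups were separated, against 14.2% and 13.2% of genes, but for the 33 members split by replicate set this could not occur. DESeq2 with the replicate block called Coro1a at 1.45 (adjusted p = 0.00448) and Hcls1 at 2.01 (adjusted p = 0.00607), where it called 6.53% of genes. Cyba was 2.48-fold (1.46 to 4.38) above D0 in replicate 1 and 1.53-fold (1.38 to 1.7) in replicate 2.

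Vitamin C itself was compared last, VC+ against VC-, and no member passed its test. In replicate 2 the ratios ran from 0.496 (C1qc) to 1.31 (Cd48), with a median of 0.908. The interval was below 1 for 18 members, above 1 for 7 and across it for 9. C1qc was the only member down by at least 2-fold on log2(CPM + 0.5), against 0.643% of genes, and 0 were up, against 3.40%. The C1q chains and Cd14, at 0.568 (0.510 to 0.633), were the lowest, and the scavenger group summed to 0.629 (0.578 to 0.684) of its VC- level. Aif1, Trem2, Cd48, Mpeg1, Gpnmb, Irf8 and Cyba were the 7 above 1. Sums of the identity genes, at 0.968 (0.932 to 1.00), and of the ITAM group, at 0.989 (0.94 to 1.04), were close to those without vitamin C.

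Replicate 1 held too few reads for most of these ratios. Both libraries were at or under 3 reads for 21 members, and among the other 13 the interval spanned 1 for 9. In both sets 5 members were higher with vitamin C and 13 lower, against 30% and 26.4% of all genes. No member's groups were separated, against 8.15% and 7.82% of genes, but for the 33 members split by replicate set this could not occur. The intervals of Cd48 and Gpnmb were above 1 in each set, Gpnmb at 1.40 (1.12 to 1.76) and 1.15 (1.08 to 1.22). Those of Tmem119 and Lcp1 were below it, Tmem119 at 0.165 (0.0175 to 0.772) and 0.753 (0.641 to 0.883), and Lcp1 at 0.347 (0.180 to 0.636) and 0.909 (0.845 to 0.978). The limma fit called 0 members and 0% of genes (62 genes and 0 members unadjusted). As to other tools, edgeR called 0 genes (66 unadjusted) and DESeq2 6, with 0 members. The member median was -0.13, from -0.83 for Tmem119 to 0.96 for Cd48. With the replicate block limma called 0 genes and members (404 genes and 1 member, Lyz2, unadjusted), and DESeq2 called 0.271% of genes and 0 members.

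**Figure D3:**
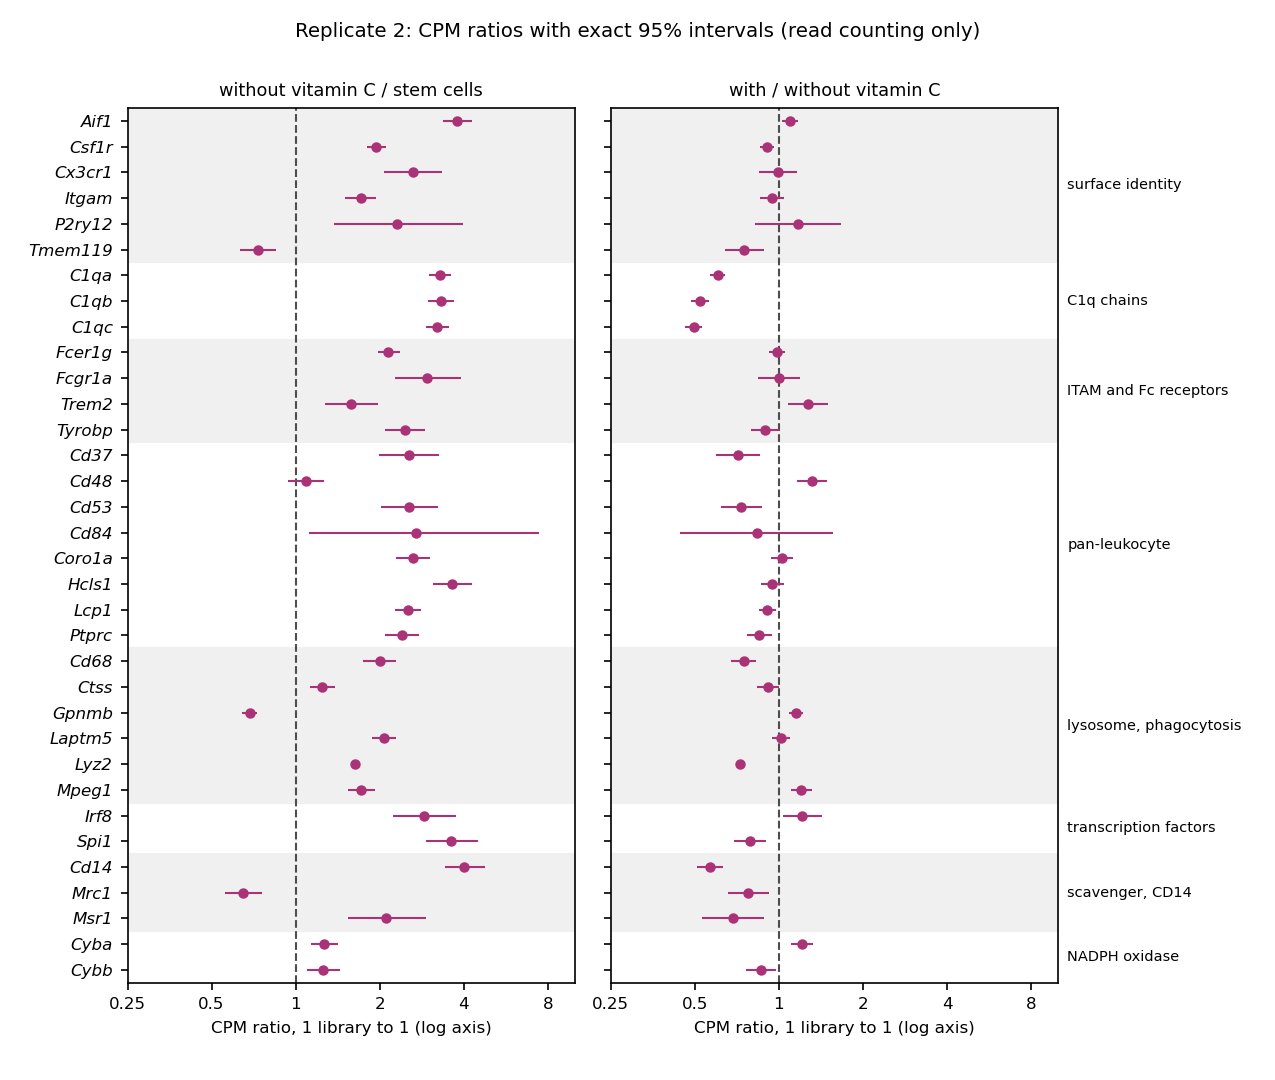
CPM ratios within replicate 2 for each member on a log axis, VC- to D0 on the left and VC+ to VC- on the right, with exact 95% intervals that cover read counting only. Most points on the left lie above 1, with Tmem119, Gpnmb and Mrc1 below it, and those of the C1q chains and Cd14 are the lowest on the right.

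Genes that work with the members were split by replicate set too. Rac2, the small GTPase of the oxidase, was at 0.252, 0 and 0.0957 CPM in replicate 1 and reached 22.4, 82.4 and 75.3 CPM in replicate 2. Its fitted difference was 6.43, but it passed the filter through replicate 2 only and so had to differ. Of 15 kinases and adaptors downstream of ITAM receptors, 14 were called higher, against the 17.4% of all genes, and 0 lower. At least 10 of the 15 passed the filter through replicate 2 only and so had to differ. The phosphatase gene Ptpn6 among them was at 0.252 to 0.581 CPM against 19.9 to 71.0 CPM, while the kinase Syk, at 32.2 to 117 CPM and then 14.6 to 22.3 CPM, was not called (adjusted p = 0.114). Of 15 other complement genes, 12 were called higher, against the same 17.4%, and 0 lower. At least 7 of the 15 had passed through replicate 2 only. C3, the component on which the complement pathways converge, was at 0, 0.465 and 0.191 CPM and then at 173, 618 and 1082 CPM. The proteases C1r and C1s, which join C1q in the first complement complex, reached 106, 243 and 446 CPM and 75.0, 193 and 522 CPM in replicate 2. They were thus highest in VC+, unlike the C1q chains, and the other complement genes together were 2.04-fold higher in VC+ than in VC- there.

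Of 10 growth factors, ligands and cytokine receptors that act on microglia, 9 were called higher in replicate 2. Over all genes 17.4% were, here and for the next 2 lists. Of the 10, 3 passed the filter through replicate 2 only. Csf1, the main ligand of CSF1R, was at 25.7, 24.5 and 42.7 CPM in replicate 1, against 163, 180 and 213 CPM in replicate 2. Cx3cl1, the ligand of CX3CR1, was at 60.9, 48.6 and 36.5 CPM and then at 298, 125 and 181 CPM. Homeostatic microglia genes beyond the members were called higher for 13 of 16, with at least 4 tested through replicate 2 only. Genes of the lipid-handling state were called higher for 11 of 14, with 2 tested through replicate 2 only. In either list 0 were called lower. Many of these are not particular to microglia. Apoe, which astrocytes also make, was at 258, 830 and 3384 CPM and then at 1620, 4491 and 5278 CPM and was not called (adjusted p = 0.0507).

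Markers of several other cell types were split by replicate number as well. Of all 11823 genes tested, 17.4% were called higher in replicate 2 and 910 genes lower, to be set beside the counts that follow. The 14 fibroblast, pericyte and meningeal markers listed summed to 324 to 469 CPM in replicate 1 and 5494 to 11190 CPM in replicate 2, with 13 called higher, and Col1a1 was at 39.1 to 115 CPM against 1759 to 5968 CPM. Endothelial markers summed to 6.05 to 8.42 CPM and then 28.0 to 60.8 CPM, with 6 of 9 tested called higher. At least 6 of the 9 passed the filter through replicate 2 only. Of lymphocyte and granulocyte markers few were listed. Lck, 1 of 12 T and NK cell markers, was at 2.01 CPM at most. The 3 B cell markers listed, of 7, summed to 6.93 to 12 CPM in replicate 2, with 2 called higher. Both, Cd79b and Cd22, needed replicate 2 to pass the filter. Prtn3, 1 of 12 neutrophil and mast cell markers, was at 5.38 CPM at most. It passed the filter through replicate 2 only and so had to differ. None of the red cell markers searched for was listed. Oligodendrocyte lineage markers went the other way, from 2311 to 12622 CPM in replicate 1 to 802 to 1127 CPM in replicate 2, with 9 of 11 called lower. Neural stem cell markers summed to 3987 to 4921 CPM and 5048 to 6330 CPM, with 3 of 12 called higher and 3 lower. Neuronal markers summed to 538 to 672 CPM and 487 to 550 CPM, with 3 of 10 called higher and 1 lower. Astrocyte markers differed less by set, with 1 of 8 called higher, and were highest in VC+ of each set, with sums of 1187, 1455 and 4879 CPM in the first set, against 2004, 2333 and 6642 CPM in the second, a VC+ to VC- ratio of 3.35 and then 2.85. Beside the members' ratios within replicate 2, the fibroblast sum in VC- was 0.744 of that in D0, and in VC+ 0.660 of that in VC-. In replicate 1 these ratios were 1.45 and 0.792. Sequencing depth was also higher in each replicate 2 library. The part of other cells, depth and day in the members' differences was not tested.

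**Figure D4:**
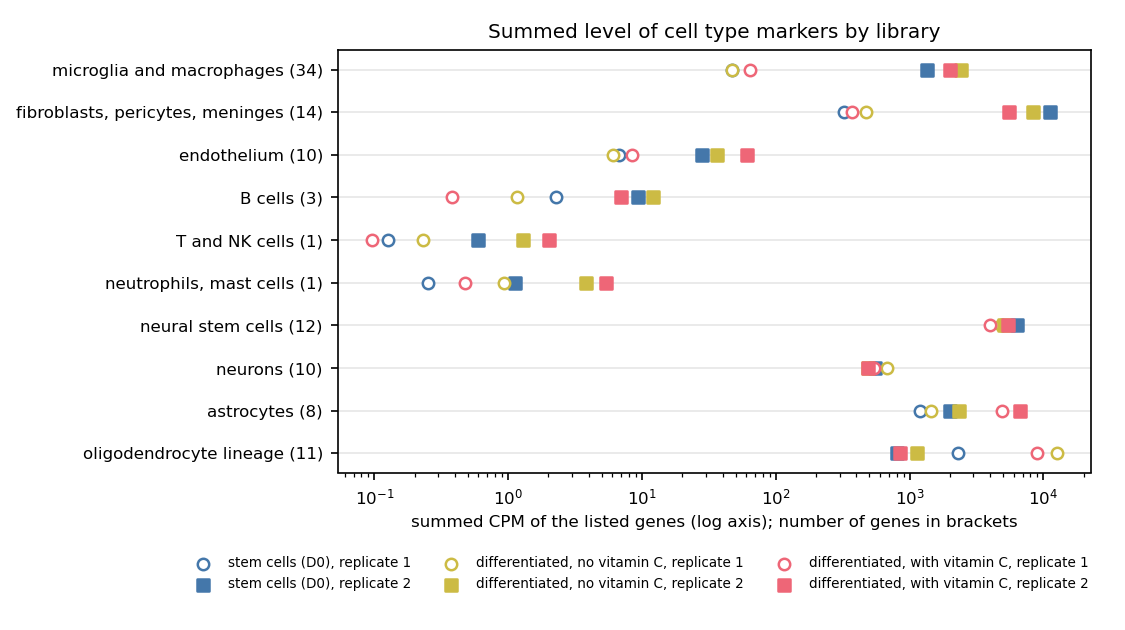
Summed CPM, on a log axis, of the members and of marker lists for other cell types in each of the 6 libraries, with the number of listed genes in brackets; open circles are replicate 1 and filled squares replicate 2. The member sums, 46.9 to 63.7 CPM and 1354 to 2435 CPM, and the fibroblast sums are split by replicate number in the same direction, and the oligodendrocyte sums in the opposite direction.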

How the data were processed

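The authors deposited 1 table of CPM values per gene for the 6 RNA-seq libraries. Per the submitters' processing notes, the tools included deepTools 2.4.2, HOMER 4.9.1, Bowtie2 2.1.0, CASAVA 1.7, edgeR 3.12.1 and STAR 2.5.1, with build rn5 and no roles stated. Per the labels' protocols, libraries came from a TruSeq kit. The read counter, annotation, strand setting and gene filter are not given in the sources used here. Each deposited CPM value was a whole multiple of its library's step (100% of values, relative tolerance 1e-06), which gave whole reads. Genes with at least 1 CPM in 2 libraries, 11823 in all, were fitted on log2(CPM + 0.5) with limma 3.58.1 under R 4.3.3 (two-sided, with a mean trend) and Benjamini-Hochberg adjustment over all genes and a threshold of 0.05. Groups were tested with 3 groups in 1 fit, and replicate sets by the replicate term of a fit with group and replicate. A fold on this scale understates the change of low genes. Ratios between 2 libraries carry exact 95% binomial intervals from their reads, and a gene without reads was set to 3 reads for a bound. Libraries without and with vitamin C share number and day label, and their deviations from group means correlated at 0.914 across genes. Stem cells share only the number with them (0.730 and 0.688). Alternatives were pseudocounts of 0.1 and 2, other filters, 2 rescalings, edgeR 4.0.16 and DESeq2 1.42.0 on reads, a replicate block, and leaving out each library. Code was tested on simulated data. The members and lists were chosen with earlier results of these data known. Each member is named, and of each other list at most the 3 genes of highest mean CPM are given with values. The list of other oxidase genes is not reported here in full.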

Additional observations from a re-analysis of the deposited data

Results flagged for a closer look

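Gpnmb differed from the stem cells in opposite directions in the 2 replicate sets, whose differentiated cells carry D4 and D5 labels. The ratio of cells without vitamin C to stem cells was 1.68 in replicate 1 and 0.684 in replicate 2. With vitamin C the ratio to stem cells was 2.35 in replicate 1 and 0.787 in replicate 2. Each ratio compares 1 library with 1, and the difference between the sets was not tested.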

How the results depend on the processing

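The settings changed no direction of the replicate difference for any member, but they changed its size and calls. Its member median, 4.54, was 6.24 with a pseudocount of 0.1, 3.21 with a pseudocount of 2, 3.84 after quantile normalization, 7.12 in edgeR and 7.24 in DESeq2. Quantile normalization moved the median of all genes in that comparison to -0.20. Without 1 library at a time, 0 to 5098 genes and 0 to 34 members were called, and Cd48 passed when a stem cell library was left out. Members called in the group comparisons stayed at 0 except in DESeq2 with the replicate block, chosen after seeing the data, with 3 for cells without vitamin C against stem cells and 2 for cells with it. Over all genes, DESeq2 called 6 for vitamin C, 71 without vitamin C against stem cells and 137 with it, and with the replicate block 32, 457 and 772, where limma called 0. The limma replicate block left every call at 0. The member median for vitamin C, -0.13, was -0.23 in DESeq2 and -0.20 in edgeR with the replicate block. That without vitamin C against stem cells, 0.49, was 1.21 in edgeR, 1.18 in DESeq2 and 1.15 in edgeR with the block, and that with vitamin C against stem cells, 0.45, was 1.02 in edgeR and 1.00 in DESeq2. Leaving out 1 library at a time unbalances the sets: the member median then ran from -2.71 to 2.42 for vitamin C, from -1.87 to 3.23 without vitamin C against stem cells, and from -2.06 to 3.14 with it. Differences of single members changed sign likewise: Tmem119 from -3.01 to 1.34 for vitamin C and from -3.01 to 1.83 with vitamin C against stem cells, Cd48 from -1.61 to 0.019 and Lcp1 from -0.67 to 4.70 without vitamin C against stem cells, and Hcls1 from -0.62 to 3.80 with it. The sum of members without vitamin C over stem cells in replicate 2, 1.80, was 1.91 without Lyz2. The cause of these changes was otherwise not tested. In replicate 1, 21 of 34 members had at most 3 reads in every library, so ratios between groups could not be read for them there.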

Other observations

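Several genes of innate immunity were also read mainly in replicate 2. Of 11 Toll-like receptor genes and adaptors tested, 8 were under 1 CPM in every replicate 1 library, as were 9 of 11 chemokine and cytokine genes. These passed the filter through replicate 2 only and so had to differ, and their calls are not counted. The other 3 genes of the first list were Unc93b1, Myd88 and Tlr3, and the other 2 of the second were Cxcl16 and Il18. Between the sets, limma called Unc93b1 and Cxcl16 higher in replicate 2, while Myd88 (adjusted p = 0.0868), Tlr3 and Il18 were not called. In the order D0, VC-, VC+, Unc93b1 was at 4.67, 1.51 and 3.64 CPM in replicate 1, against 35.7, 45.2 and 51.8 CPM in replicate 2. Myd88 was at 8.58, 5.70 and 6.60 CPM and then at 9.59, 16.2 and 18.2 CPM. Cxcl16 was at 1.01, 1.86 and 1.24 CPM and then at 13.2, 38.7 and 40.9 CPM. Tlr2, a receptor for bacterial lipoproteins, was at 0, 0.465 and 0.574 CPM in replicate 1, against 18.9, 43.3 and 36.2 CPM in replicate 2. Il1b, the inflammatory cytokine, had no read in replicate 1 and 6.04, 20.9 and 14.3 CPM in replicate 2. Ccl6, a chemokine of macrophages, had none either and then 5.91, 43.9 and 9.13 CPM, so the library without vitamin C was the high one. Fcgr3a, an activating Fc receptor, was at 0 to 0.116 CPM and then at 18.7, 38.2 and 37.5 CPM.

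The MHC class II pathway stayed low. Its 4 listed genes summed to 2.23, 3.71 and 14.7 CPM in replicate 2, highest with vitamin C. Cd74, the invariant chain, was at 1.05, 1.24 and 5.20 CPM there and at 0.116 to 0.252 CPM in replicate 1, and did not pass the limma test between sets (adjusted p = 0.0526).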
